A study of Mus musculus with 6 samples.

Results

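Replication-dependent histone genes encode the H1, H2A, H2B, H3 and H4 proteins that package newly copied DNA. The 65 genes described here are every row of the count tables whose symbol begins with Hist1h, Hist2h, Hist3h or Hist4h, counted or not, out of 23229 annotated genes and 25610 genes and assembled regions in all. They comprise 6 H1, 16 H2a, 18 H2b, 12 H3 and 13 H4 genes, among them the testis forms Hist1h1t, Hist1h2aa and Hist1h2ba. One of the 65, Hist3h2bb-ps, is annotated as a processed pseudogene.

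RNA was sequenced from isolated sperm nuclei and from whole sperm of mice, to compare the nuclear RNA with that of the whole cell. Sperm of the adult C57BL/6 transgenic line HP3.1 came from the cauda epididymis and vas deferens of individual mice aged 4 months, and both groups carry the transgene. The first group is sperm nuclei, in 2 preparations (nuclei 1 and nuclei 2), freed of tails by sonication and then spun through sucrose and caesium chloride cushions, the last with Triton X-100. The second is whole sperm, in 1 preparation, extracted without these steps after a visual check for other cells. Each preparation was sequenced in 2 runs, which are combined in 1 column. The labels do not tie preparations to animals, so p-values measure only the spread between these preparations, which may be technical, and whole sperm has no replicate of its own.

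In dividing cells these genes are transcribed during S phase, when DNA is copied. Their mRNAs typically lack introns and end in a short stem-loop, bound by SLBP, in place of a poly(A) tail, and are degraded when replication stops. In the male germ line, testis forms of H1, H2A and H2B are made before and during meiosis, and most histones are later replaced by transition proteins and then by protamines as the sperm nucleus condenses.

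The stem-loop is the feature that defines the family's mRNAs, so it is printed for 8 of the members described below. A search for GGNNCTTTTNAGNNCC on both strands of the annotated GENCODE vM21 transcripts found it on the sense strand in 41 of the 65 genes (63.1%) and on the antisense strand in 0. Among the other 55276 genes it was present on the sense strand in 47 (0.0850%) and on the antisense strand in 42 (0.0760%). Histone genes were searched in a chosen transcript alone, and the other genes in every annotated transcript. Each line gives the gene and the match in capitals with its flanks in lower case, 5′ to 3′ in DNA letters.
Hist1h1t: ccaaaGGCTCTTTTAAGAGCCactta
Hist1h1c: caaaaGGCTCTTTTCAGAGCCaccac
Hist1h2bb: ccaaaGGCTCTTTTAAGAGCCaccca
Hist1h2bf: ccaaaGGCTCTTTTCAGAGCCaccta
Hist3h2ba: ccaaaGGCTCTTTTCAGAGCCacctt
Hist1h3e: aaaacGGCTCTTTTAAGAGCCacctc
Hist1h4h: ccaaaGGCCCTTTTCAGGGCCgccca
Hist2h4: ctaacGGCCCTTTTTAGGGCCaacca
The first stem letters separated the H4 genes from the rest. All 30 matches in H1, H2a, H2b and H3 genes began GGCTC, and none of the 11 in H4 genes did. The form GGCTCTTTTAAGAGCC was found in 6 genes (Hist1h1t, Hist1h2bb, Hist1h2bk, Hist1h3c, Hist1h3e and Hist1h3f), whereas 23 genes had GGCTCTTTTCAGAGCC. A missing match says only that these letters are not in the transcript searched. The transcripts of Hist1h2aa and Hist1h2ba, at 390 and 384 bases, are no longer than a coding sequence. The longer transcripts of Hist2h2be (2620 bases) and Hist1h2bc (1156 bases), abundant genes described below, had no match either. The annotated transcript ran more than 100 bases past the stem-loop in 22 of the 41 genes and up to 100 bases in the other 19.

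RefSeq promoter sequence (GRCm38.p6, 250 bases before to 50 after the start) was matched for 59 of the 65 genes. CCAAT, searched on both strands as was each motif here, was present in 84.7% of them against 37.4% of all 32851 promoters. TATAAA was present in 57.6% against 13.6%, the octamer ATTTGCAT in 22.0% against 1.74%, and the cAMP response element core TGACGT in 25.4% against 7.51%. CCAAT was found in all 47 matched promoters outside the H4 class and in 3 of the 12 H4 promoters. The octamer was found in 7 of 16 H2a and 6 of 15 H2b promoters and in 0 of the H1, H3 and H4 promoters. The regions of 3 promoters are shown because they precede members whose counts are described below, as the 250 bases before the RefSeq start, 5′ to 3′, with these motifs in capitals. The first, chr13:23934187-23934436 on the plus strand, lies between the divergent testis genes Hist1h2ba and Hist1h2aa, the second, chr13:23695561-23695810 on the plus strand, precedes Hist1h1t, and the third, chr3:96220881-96221130 on the minus strand, precedes Hist2h2ac and spans the gap to Hist2h2be.
Hist1h2aa: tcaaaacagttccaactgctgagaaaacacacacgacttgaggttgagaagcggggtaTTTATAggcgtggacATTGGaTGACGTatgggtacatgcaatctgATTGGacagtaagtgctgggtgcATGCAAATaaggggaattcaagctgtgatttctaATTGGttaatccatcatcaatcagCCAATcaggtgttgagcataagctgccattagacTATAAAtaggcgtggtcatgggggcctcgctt
Hist1h1t: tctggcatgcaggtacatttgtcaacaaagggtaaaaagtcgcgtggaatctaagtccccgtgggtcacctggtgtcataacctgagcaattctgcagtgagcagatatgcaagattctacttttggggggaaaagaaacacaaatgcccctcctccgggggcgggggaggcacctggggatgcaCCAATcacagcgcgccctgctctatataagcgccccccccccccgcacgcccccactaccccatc
Hist2h2ac: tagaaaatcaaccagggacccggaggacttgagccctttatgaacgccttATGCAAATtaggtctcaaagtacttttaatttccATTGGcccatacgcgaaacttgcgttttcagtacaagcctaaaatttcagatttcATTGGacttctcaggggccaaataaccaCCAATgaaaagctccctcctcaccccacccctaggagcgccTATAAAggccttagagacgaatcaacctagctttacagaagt
The testis H2A and H2B genes shared 1 region that holds all 4 motifs, with 305 bases between their annotated starts. That of Hist1h1t held CCAAT and none of the other 3. A match is a description of letters and was not tested as a binding site.

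Histone mRNA was scarce in both sperm nuclei and whole sperm. The nuclei libraries held 5487306 and 6648848 gene and region counts and the whole-sperm library 8316345, so that 1 read was worth 0.182, 0.150 and 0.120 CPM, the unit that scales counts to library size. The 65 genes took 2436 and 1847 of these counts in nuclei 1 and nuclei 2, against 3196 in whole sperm. This was 0.0444% (95% exact Clopper-Pearson interval 0.0426 to 0.0462) and 0.0278% (0.0265 to 0.0291) in the nuclei libraries and 0.0384% (0.0371 to 0.0398) in whole sperm. The whole-sperm share lay between those of the nuclei libraries, an order that rests on Hist2h2be. Without that gene the shares were 0.0331% and 0.0256% in the nuclei libraries, against 0.0378% in whole sperm, and summed RPKM over all histone genes was 164 and 176, against 233, so that both nuclei libraries were below whole sperm on either measure. These intervals hold counting error alone and treat each read as independent. PCR duplicates could not be recognised, so the intervals may be too narrow. In bulk RNA of this kind, fewer cells with a transcript and less of it per cell cannot be told apart.

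A count was recorded for 27 and 29 of the 65 genes in nuclei 1 and nuclei 2, against 36 in whole sperm. These were 41.5% and 44.6% of the histone genes, against 55.4%, while over all 25610 features a count was recorded for 62.3% and 53.0% in the nuclei libraries, against 60.9% in whole sperm. Of the 65, 20 had a count in all 3 libraries, 9 in 2 of them, 14 in 1 and 22 in none. Those without any count were 7 H2a, 4 H2b, 5 H3 and 6 H4 genes, and a count of 0 allows up to 3 counts, or 0.547 and 0.451 CPM in the nuclei libraries and 0.361 CPM in whole sperm at library size. Whole sperm alone held reads of 8 genes (6.29% of all features), while Hist1h2bj was the 1 gene with reads in both nuclei libraries and none in whole sperm (3.44% of all features). Detection also differed between the nuclei libraries, with 6 genes counted in nuclei 1 and not nuclei 2 and 8 the other way round. Among features with enough counts to test, reads in only 1 nuclei library were less frequent in histone genes (17.2%) than over all features (27.1%). A few genes dominated: the 5 with most counts took 59.3% and 56.2% of histone counts in the nuclei libraries and 62.5% in whole sperm.

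Near-identical copies make some of these counts uncertain. In the annotated transcripts of the 22 genes with no count, a median of 73.7% of 50-base words (18.8 to 100) also occurred in another gene, and 15 of the 22 shared 50% or more. In the 43 genes with a count the median was 40.4%, and in the 25 genes with 20 counts or more in a library it was 30.6%, with 3 of the 25 at 50% or more. Genes annotated at the same place count as another gene here. Hist2h2bb, for example, had 100% of its words in other genes and 0% in other histone genes. Within the histone genes alone, these medians were 69.3%, 36.2% and 19.6%. No word of Hist1h1a, Hist1h1t or Hist2h2be was shared. The sources used here do not give how reads that align to several genes were handled, and the whole-sperm table lists 0 reads as aligned to more than 1 place, so a count of 0 in a gene with close copies does not show that its RNA was missing.

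**Figure D1:**
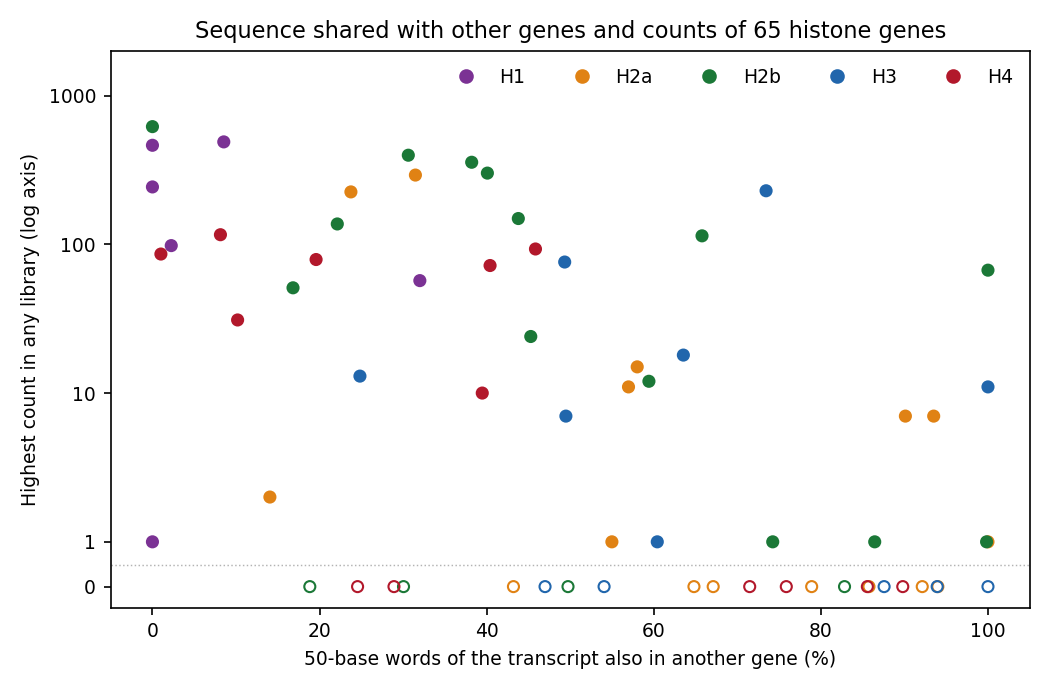
Each of the 65 points is a histone gene, with the percentage of its transcript's 50-base words found in another gene on the horizontal axis and its highest count in any library on a log vertical axis, where open points below the dotted line had no count. Genes with no count had a median of 73.7% shared words (69.3% within histone genes alone), against 30.6% (19.6%) in the 25 genes with 20 counts or more, and the colours give the histone class.

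The make-up of the histone RNA differed between the preparations. H1 genes gave 115 and 404 counts in nuclei 1 and nuclei 2, against 1206 in whole sperm, or 4.72% and 21.9% of all histone counts against 37.7%. H2b genes gave 1551 and 841 counts in the nuclei libraries, against 963 in whole sperm, or 63.7% and 45.5% of histone counts against 30.1%. H1 was thus a smaller and H2b a larger part of the histone counts in both nuclei preparations than in whole sperm. For H2b in nuclei 2 this did not hold per length, with 68.2 of 176 RPKM there, against 92.5 of 233 RPKM in whole sperm. As a share of all counts, H1 was 0.00210% (0.00173 to 0.00252) and 0.00608% (0.00550 to 0.00670) in the nuclei libraries and 0.0145% (0.0137 to 0.0153) in whole sperm. H2b was 0.0283% (0.0269 to 0.0297) and 0.0126% (0.0118 to 0.0135) in the nuclei libraries and 0.0116% (0.0109 to 0.0123) in whole sperm. On that scale the H2b intervals of nuclei 2 and whole sperm overlapped, nuclei 2 was below whole sperm without Hist2h2be (0.0105% against 0.0110%), and the 2 nuclei libraries differed from each other more than nuclei 2 did from whole sperm.

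H2a genes gave 158 and 267 counts in nuclei 1 and nuclei 2, against 537 in whole sperm. H3 genes gave 325 and 96 counts in the nuclei libraries, against 157 in whole sperm. H4 genes gave 287 and 239 counts, against 333. Relative to all counts H2a was below whole sperm in both nuclei libraries, while for H3 and H4 the whole-sperm share lay between the nuclei shares. Per length, in the RPKM values the authors deposited, H2b and not H1 led in whole sperm: H2b summed to 103 and 68.2 RPKM in nuclei 1 and nuclei 2, against 92.5 RPKM in whole sperm, and H1 to 4.95 and 27.1 RPKM, against 49.4 RPKM. H4 summed to 22.1 and 38.0 RPKM in the nuclei libraries, against 47.9 RPKM in whole sperm. H2a summed to 10.6 and 36.1 RPKM, against 30.6 RPKM, and H3 to 23.3 and 6.76 RPKM, against 12.3 RPKM. On the RPKM scale whole sperm therefore lay between the nuclei libraries for H2a, H2b and H3, and H1 and H4 were lower in both nuclei libraries. For H2a, H2b and H4 this order differs from that of the shares of all counts, where whole sperm was lowest for H2b.

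**Figure D2:**
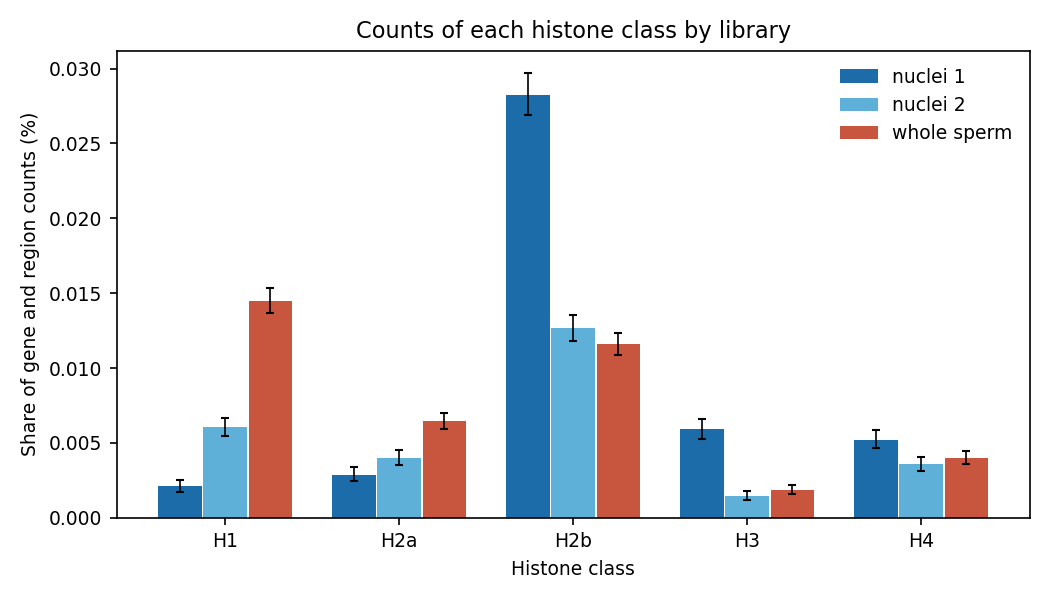
Bars give the percentage of all gene and region counts taken by each histone class, in the order nuclei 1, nuclei 2, whole sperm, with 95% exact Clopper-Pearson intervals as error bars, for counting error alone. H1 was lowest in nuclei 1 (0.00210%) and highest in whole sperm (0.0145%), and H2b was highest in nuclei 1 (0.0283%).

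Low counts left 29 of the 65 genes for the edgeR quasi-likelihood test across all 16720 genes and regions: 5 H1, 3 H2a, 11 H2b, 3 H3 and 7 H4. None passed a Benjamini-Hochberg adjusted p of 0.05 in that test in either direction, where 0.0658% of all tested features were called higher and 0.0957% lower in nuclei. The smallest adjusted p of a histone gene was 0.350, for Hist2h2be. At an unadjusted p under 0.05, edgeR placed 2 histone genes higher in nuclei (Hist2h2be and Hist1h2bf) and 0 lower, against 3.77% and 2.07% of all features. By adjusted p, DESeq2 called 0 of the 17 histone genes to which it gave one, where it called 1.53% of all features higher and 0.403% lower. At its unadjusted p DESeq2 placed 4 histone genes higher and 0 lower, and the share of all features at that threshold is not given here. With spike-in scaling 1 histone gene, Hist1h1c, was called lower and 0 higher, where edgeR called 3.26% of all features lower and 0.0239% higher. The fit has 1 residual degree of freedom and a large pooled spread, and a p above the threshold does not show that levels were alike.

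By direction the histone genes were split. The fitted log2 fold change of nuclei over whole sperm was above 0 for 14 of the 29 and below 0 for 15, against 54.4% and 45.6% of all features. Their median was -0.13, against 0.27 for all features tested, and it stayed at -0.13 with the 4 genes at 0 in a whole group set to their bound. By class the median was -2.70 for H1, -1.46 for H2a, 2.61 for H2b, 1.16 for H3 and -0.13 for H4, and the H2b value was 2.09 with genes at their bound. From nuclei 1 alone and nuclei 2 alone these medians were -3.40 and -4.23 for H1, -1.42 and -2.60 for H2a, 3.57 and 0.10 for H2b, 1.94 and -0.26 for H3 and 0.37 and -0.43 for H4, so those of H3 and H4 had opposite signs in the 2 preparations. Both nuclei libraries lay above whole sperm for 8 genes (26.7% of all features did) and both lay below for 9 (36.9% of all features). Taken singly, nuclei 1 was above whole sperm for 16 of the 29 (48.4% of all features) and nuclei 2 for 12 (41.5% of all features).

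**Figure D3:**
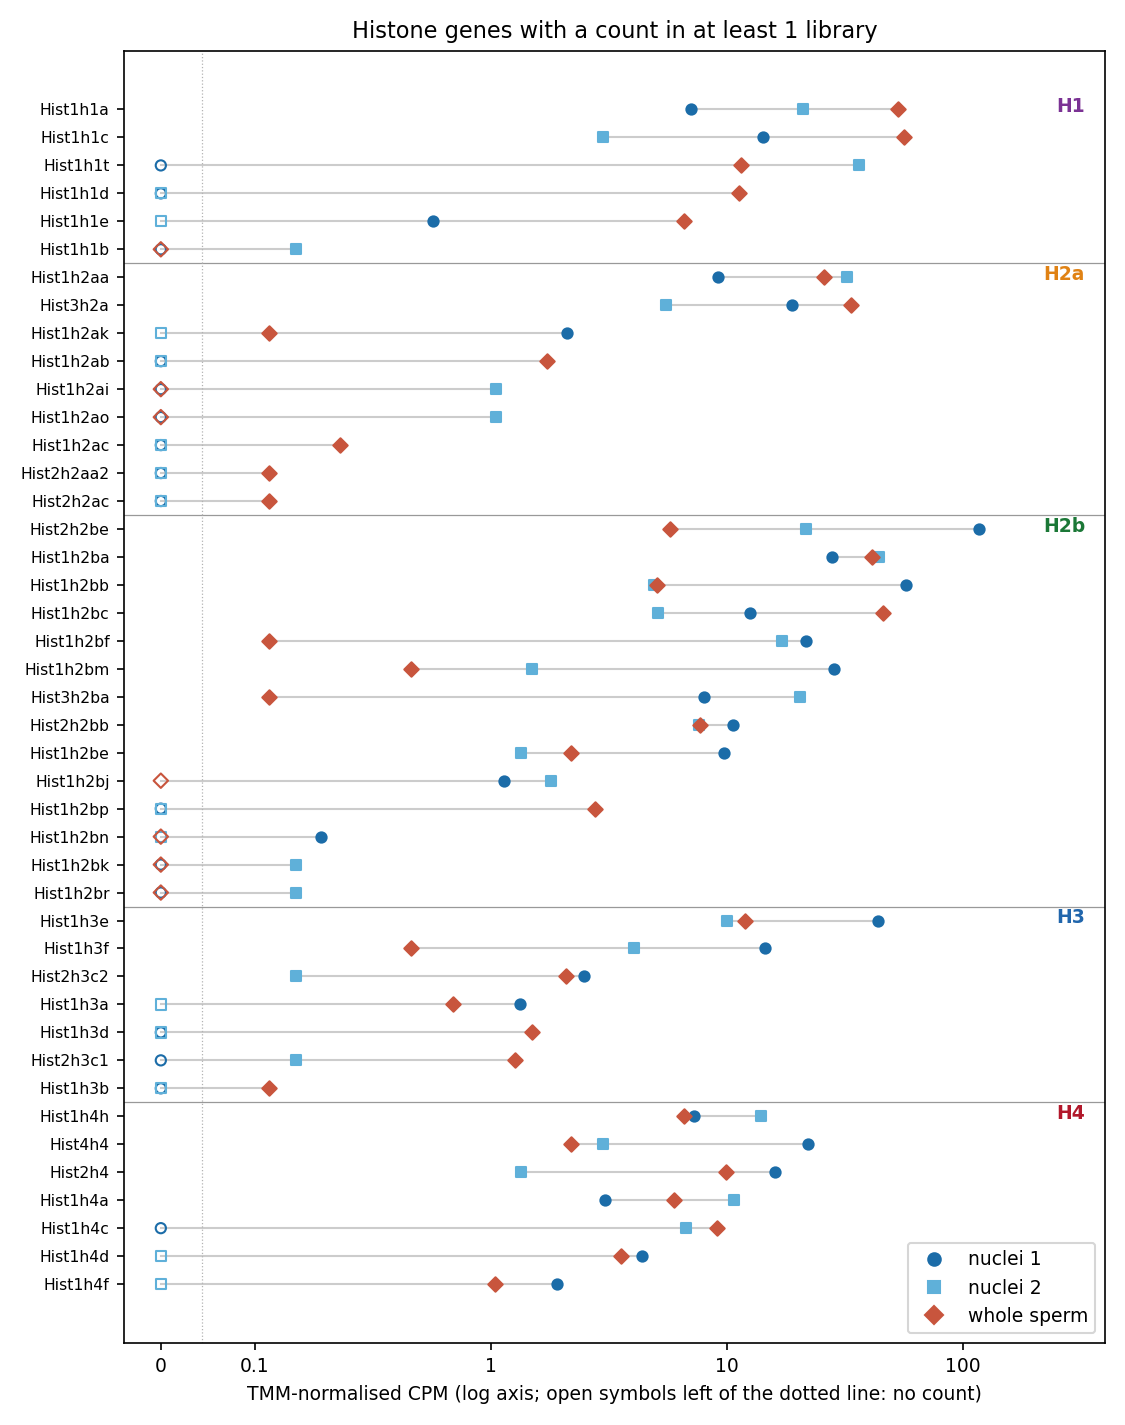
TMM-normalised CPM on a log axis is shown for the 43 histone genes with a count in at least 1 library, grouped by class, with circles for nuclei 1, squares for nuclei 2 and diamonds for whole sperm; open symbols left of the dotted line are libraries with no count. Whole sperm is the highest point for Hist1h1a, Hist1h1c, Hist1h1d and Hist1h1e, and a nuclei library is the highest for Hist2h2be, Hist1h2bb, Hist1h2bf and Hist1h2bm.

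The linker histone genes of somatic type with more than 1 read were below whole sperm in each nuclei preparation, but not beyond the spread of the fit. Linker histone H1 binds the DNA where it enters and leaves the nucleosome. Hist1h1a, which encodes a linker histone form known from testis, had 7.05 and 20.97 CPM in nuclei 1 and nuclei 2, against 53.4 CPM in whole sperm (log2 fold change -1.93 ± 1.35 SE, edgeR Benjamini-Hochberg adjusted p = 0.909). Hist1h1c, the gene of the widely expressed form H1.2, had 14.3 and 2.996 CPM, against 56.3 CPM in whole sperm (log2 fold change -2.70 ± 1.44, edgeR's adjusted p = 0.898). Whole sperm stood above both nuclei libraries for each gene, while the order of the nuclei libraries was opposite. Hist1h1d had 0 and 0 counts in nuclei, against 98 in whole sperm, a level at least 22.1-fold lower in nuclei against a floor of 3 counts per library. That bound leaves out the spread of the fit (log2 fold change -9.28 ± 5.96, edgeR's adjusted p = 0.909). Over its annotated transcript of 7425 bases the gene was at 1.14 RPKM in whole sperm. Hist1h1e had 3 and 0 counts in nuclei, against 57 in whole sperm, but it overlaps Hist1h2be on the same strand, so their reads may be mixed. Hist1h1b had 1 read in nuclei 2 and none elsewhere. Summed, the 5 H1 genes other than Hist1h1t had 21.9 and 24.1 CPM in the nuclei libraries, against 128 CPM in whole sperm.

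Markers of epididymal epithelium were also a smaller part of the nuclei libraries than of whole sperm. The 10 markers took 0.168% and 0.175% of counts in the nuclei libraries, against 1.11% in whole sperm. All 6 that could be tested had a log2 fold change below 0, against 45.6% of all features. Crisp1, a secreted epididymal protein, was called lower by edgeR, as were 0.0957% of all features. Crisp1 had 487 and 525 CPM in nuclei, against 6447 CPM in whole sperm (edgeR's adjusted p = 0.0241), Cd52 677 and 749 CPM, against 1756 CPM, and Serpina1f 422 and 232 CPM, against 1560 CPM. Lcn5, Lcn8 and Rnase10 of that list were at 0 in every library. Leukocyte markers took 0.00173% and 0.00171% of counts in the nuclei libraries, against 0.00356% in whole sperm, but Itgam had 14.3 and 3.89 CPM, against 2.08 CPM. Laptm5 had 0 and 4.49 CPM and Ptprc 0 and 3.59 CPM in nuclei, against 7.50 CPM for each in whole sperm. Erythrocyte markers had 0 and 4 counts in the nuclei libraries, against 3 in whole sperm. The part of other cells in the H1 difference was not tested.

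Hist1h1t, the testis linker histone made in meiotic spermatocytes, was the most uneven H1 gene. It is a gene of chr13:23695814-23696725 on the plus strand (mm10) with no overlapping gene. It had 0 and 36.4 CPM in nuclei 1 and nuclei 2, against 11.5 CPM in whole sperm, from 0, 243 and 100 counts. The nuclei libraries lay on opposite sides of whole sperm, and the log2 fold change was 0.66 ± 2.07 (edgeR's adjusted p = 1.00). The gene made up 0% and 60.1% of H1 counts in the nuclei libraries, against 8.29% in whole sperm. A count of 0 in nuclei 1 allows up to 3 counts, or 0.572 CPM after TMM scaling, which is below the level in both other libraries.

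The testis H2A and H2B genes had reads in every library, and their levels showed no difference beyond the spread. Their proteins pair in the nucleosomes of meiotic and later germ cells. Hist1h2aa (chr13:23934462-23934851, plus strand) had 9.15 and 32.4 CPM in nuclei 1 and nuclei 2, against 26.0 CPM in whole sperm (log2 fold change -0.32 ± 1.55, edgeR's adjusted p = 1.00). Hist1h2ba (chr13:23933773-23934156, minus strand) had 28.03 and 44.0 CPM, against 41.1 CPM in whole sperm (log2 fold change -0.19 ± 1.14, edgeR's adjusted p = 1.00). For both genes nuclei 1 was the lowest library and whole sperm lay between the nuclei libraries. The 2 genes, which share the divergent promoter region printed above, had Hist1h2ba over Hist1h2aa count ratios of 3.06 and 1.36 in nuclei 1 and nuclei 2 and 1.58 in whole sperm. Hist1h2aa overlaps an annotated miRNA on the other strand, and whether reads were counted by strand is not stated.

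Together the 3 testis forms gave 195 and 753 counts in nuclei 1 and nuclei 2, against 681 in whole sperm. They were 8.005% and 40.8% of histone counts in the nuclei libraries, against 21.3% in whole sperm. Per length the testis forms summed to 20.6 and 79.8 RPKM in the nuclei libraries, against 67.5 RPKM in whole sperm, or 12.5% and 45.3% of the histone total against 29.0%. In RPKM the leading histone gene was Hist1h2bb in nuclei 1 (24.3 RPKM), Hist1h2aa in nuclei 2 (34.4 RPKM) and Hist1h2ba in whole sperm (41.7 RPKM). In whole sperm Hist1h2bc (33.1 RPKM) and Hist1h1a (23.6 RPKM) stood above Hist1h2aa (20.9 RPKM), and Hist1h1t was at 4.93 RPKM. Markers of spermatogonia and spermatocytes took 0.0125% and 0.0130% of counts in nuclei 1 and nuclei 2, against 0.00881% in whole sperm, and only the sums of the nuclei libraries were close. Zbtb16, a factor of undifferentiated spermatogonia, had 44.0 and 5.09 CPM in nuclei, against 1.50 CPM in whole sperm. Stra8, which is needed for entry into meiosis, had 34.7 and 11.2 CPM, against 13.7 CPM, and Sycp1 of the synaptonemal complex had 17.4 and 21.7 CPM, against 19.04 CPM. Sperm and spermatid markers took 0.501% and 0.502% of counts in the nuclei libraries, against 0.292% in whole sperm, and Smcp, a mitochondrial capsule protein of sperm, had 430 and 413 CPM, against 606 CPM.

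Among H2a genes other than Hist1h2aa, reads came mostly from Hist3h2a. It had 18.9 and 5.54 CPM in nuclei 1 and nuclei 2, against 33.7 CPM in whole sperm (log2 fold change -1.46 ± 1.70, edgeR's adjusted p = 0.909). Both nuclei libraries were below whole sperm, but Hist3h2a lies within Trim17 on the same strand, so its reads may include those of that gene. Hist1h2ab had 0 and 0 counts in nuclei, against 15 in whole sperm, which is at least 3.39-fold lower in nuclei by the same floor. Hist1h2ak, which was too low to test, had 11 and 0 counts in the nuclei libraries, against 1 in whole sperm. Of the remaining 12 H2a genes, 7 had no read and the other 5 had 7 counts or fewer in any library.

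The H2b gene with most reads in nuclei 1, and over both nuclei libraries, was Hist2h2be, which encodes an H2B variant known from olfactory neurons of the mouse. It lies at chr3:96221119-96223738 on the plus strand, and none of its 50-base words occurs in another gene. Hist2h2be had 118 and 21.7 CPM in nuclei 1 and nuclei 2, against 5.77 CPM in whole sperm, from 618, 145 and 50 counts. Both nuclei libraries were above whole sperm, with 5.43 times more in nuclei 1 than in nuclei 2. The log2 fold change was 3.59 ± 1.24 (edgeR's adjusted p = 0.350), and with only one of the nuclei libraries it was 4.43 (nuclei 1) or 1.91 (nuclei 2). The gene held 25.4% and 7.85% of histone counts in the nuclei libraries, against 1.56% in whole sperm. Its divergent neighbour Hist2h2ac, whose start lies 238 bases away across the third promoter region printed above, had 0 and 0 counts in nuclei, against 1 in whole sperm.

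Hist1h2bf, a core H2B gene with the stem-loop form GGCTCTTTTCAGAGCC, was the histone gene with the most even excess in nuclei. It had 114 and 114 counts in nuclei 1 and nuclei 2 (21.7 and 17.1 CPM), against 1 count in whole sperm (0.115 CPM). The ratio of pooled nuclei to whole sperm was 166, with a counting interval of 29.4 to 6575, but the edgeR adjusted p was 0.814, and 65.8% of the words of this transcript occur in other histone genes. Hist3h2ba, chosen for mention after its values were seen, had a like pattern with 42 and 137 counts in nuclei, against 1 in whole sperm (ratio 130, counting interval 23.1 to 5168, edgeR's adjusted p = 0.909). Its share of words found elsewhere was 22.1%. In these 2 genes the whole-sperm level rests on a single read.

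Other H2b genes were split between the libraries. Among the 11 tested H2b genes, both nuclei libraries lay above whole sperm for 5 and below for 2. One of those above, Hist1h2bm, had 149 and 10 counts in nuclei 1 and nuclei 2, against 4 in whole sperm, so its excess was mostly in nuclei 1. Hist1h2bb, whose stem-loop is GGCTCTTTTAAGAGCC, had 57.4 and 4.94 CPM in nuclei 1 and nuclei 2, against 5.08 CPM in whole sperm (log2 fold change 2.61 ± 1.81, edgeR's adjusted p = 0.909). Nuclei 2 was level with whole sperm for it, and the excess came from nuclei 1, which exceeded nuclei 2 by 11.6 times. Hist1h2bc had 12.6 and 5.09 CPM in nuclei, against 45.8 CPM in whole sperm (log2 fold change -2.37 ± 1.59, edgeR's adjusted p = 0.909). It was the abundant H2b gene that lay below whole sperm in both nuclei preparations, and its divergent partner Hist1h2ac had 0 and 0 counts in nuclei, against 2 in whole sperm. Hist1h2bj had 6 and 12 counts in nuclei, against 0 in whole sperm, at least 4.25-fold higher in nuclei, while Hist1h2bp had 0 and 0 counts in nuclei, against 24 in whole sperm, at least 5.42-fold lower.

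**Figure D4:**
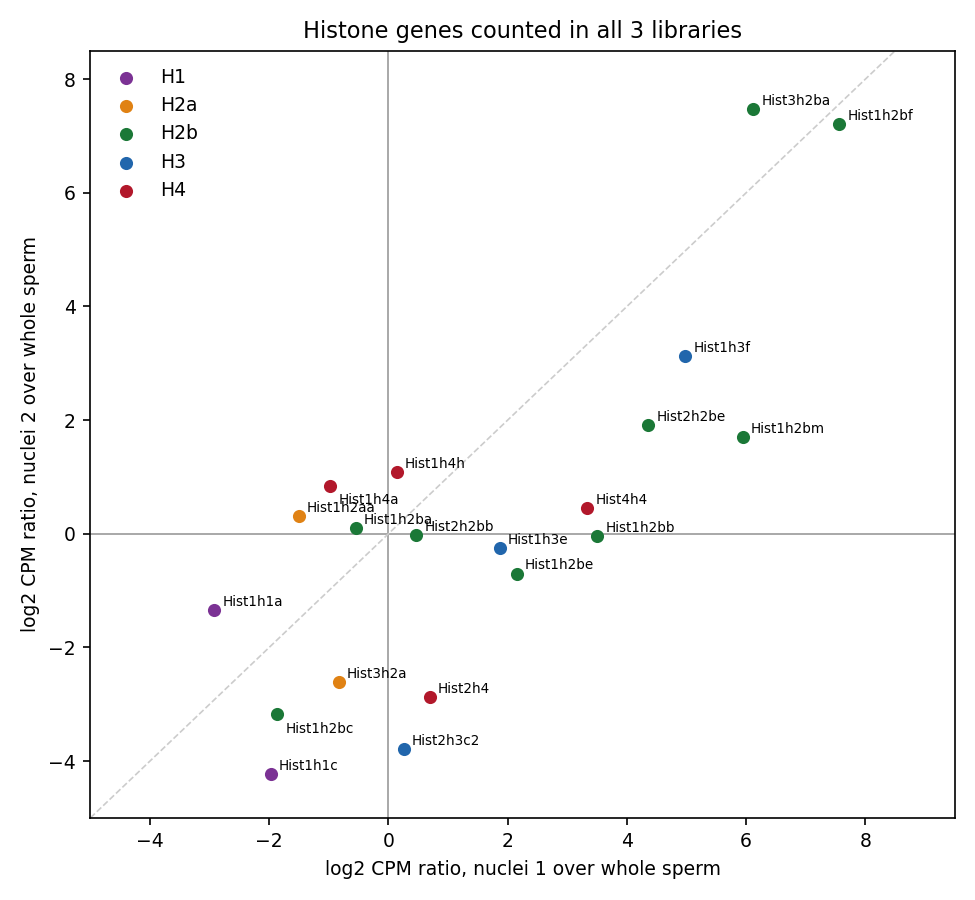
Each point is 1 of the 20 histone genes counted in all 3 libraries, with the log2 CPM ratio of nuclei 1 over whole sperm on the horizontal axis and of nuclei 2 over whole sperm on the vertical axis, so genes on the dashed diagonal had equal ratios. Of the 20 genes, 7 were above 0 on both axes, 4 were below 0 on both and 9 were on opposite sides, and Hist1h2bf and Hist3h2ba stand at the upper right with 1 whole-sperm read each.

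Core histone H3 genes had reads mainly from Hist1h3e. It had 43.7 and 10.04 CPM in nuclei 1 and nuclei 2, against 12 CPM in whole sperm (log2 fold change 1.16 ± 1.69, edgeR's adjusted p = 0.951), so whole sperm lay between the nuclei libraries. Hist1h3f had 14.5 and 4.04 CPM in nuclei, against 0.462 CPM in whole sperm (log2 fold change 4.27 ± 4.98, edgeR's adjusted p = 0.909). Hist1h3f was above whole sperm in both nuclei libraries, although whole sperm had only 4 reads of it, and 73.4% of the words of Hist1h3e and 49.3% of those of Hist1h3f occur in other genes. Hist2h3c2 had 13 and 1 counts in nuclei, against 18 in whole sperm, and Hist1h3a had 7 and 0 counts, against 6. Hist1h3d had 0 and 0 counts in nuclei, against 13 in whole sperm, at least 2.94-fold lower in nuclei.

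Core histone H4 genes had 7 members with reads, and none with a shared direction beyond the spread. Hist1h4h, with the H4 stem-loop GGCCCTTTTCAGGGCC, had 7.25 and 13.9 CPM in nuclei 1 and nuclei 2, against 6.58 CPM in whole sperm (log2 fold change 0.69 ± 3.11, edgeR's adjusted p = 1.00). Hist4h4, the lone member on chromosome 6, had 22.1 and 2.996 CPM in nuclei, against 2.19 CPM (log2 fold change 2.51 ± 3.49, edgeR's adjusted p = 0.940). Both nuclei libraries were above whole sperm for these 2 genes, narrowly so in 1 library each. Hist2h4 had 16.02 and 1.35 CPM in nuclei, against 9.92 CPM in whole sperm, and Hist1h4a had 3.05 and 10.8 CPM in nuclei, against 6.00 CPM. Whole sperm lay between the nuclei libraries for both.

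The nuclei preparations differed widely from each other in these genes. Over the 21 tested histone genes counted in both nuclei libraries, the median absolute log2 ratio between them was 1.82, against 1.26 over 11403 features counted in both. A ratio over 4-fold was found in 9 of the 21 (42.9%), against 31.6% of those features. Of the 29 tested genes, 5 (17.2%) had reads in only 1 nuclei library, against 27.1% of all features. Of these 5, Hist1h1t had the most reads in the library where it was found.

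Position in the genome divided the reads unevenly, while genes with and without the stem-loop held about equal parts in nuclei 2 and whole sperm. The large cluster of chromosome 13 holds 52 of the 65 genes and gave 1408 and 1446 counts in nuclei 1 and nuclei 2, against 2650 in whole sperm. Within it, the 21 genes of the proximal block (chr13:21715763-22043676) gave 167 and 39 counts in nuclei, against 29 in whole sperm, while the 31 genes of the distal block (chr13:23531050-23934851) gave 1241 and 1407, against 2621. The 9 genes of chromosome 3 gave 771 and 207 counts in nuclei, against 234 in whole sperm, with most of them in nuclei from Hist2h2be. The 41 genes with the stem-loop letters gave 1436 and 886 counts in nuclei, against 1561 in whole sperm, and the 24 without them gave 1000 and 961, against 1635. Genes without an annotated stem-loop thus held 41.1% and 52.0% of histone counts in the nuclei libraries, against 51.2% in whole sperm. Of the 12 divergent pairs of histone genes within 1000 bases, the testis pair was the one with 20 counts or more from both genes in some library.

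In the authors' adjusted column for whole sperm, which equals the whole-sperm count less the mean nuclei count and never falls under 0, the classes were kept to different degrees. H1 genes kept 80.4% of their whole-sperm counts, H2a 62.6%, H2b 54.1%, H4 38.7% and H3 24.8%. All histone genes together kept 62.4%, against 40.8% over all features. Of the 36 genes with a whole-sperm count, 12 (33.3%) were set to 0, against 34.1% of all features with one, among them Hist1h1t, Hist2h2be and Hist1h3e.

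Genes that make, carry and replace these histones were also examined, from lists chosen with earlier results of these data known. Of the 20 tested genes of histone pre-mRNA processing and decay, 0 were called in either direction by edgeR at an adjusted p of 0.05. Their median log2 was -1.11, against 0.27 for all features. At an unadjusted p under 0.05, edgeR placed 2 of them lower and 0 higher, against 2.07% and 3.77% of all features. Those 2 were Ncbp1, a cap-binding subunit, with 6 and 10 counts in nuclei, against 337 in whole sperm, and Coil, the Cajal body protein coilin, with 0 and 0 counts, against 187. Xrn1, the 5′ to 3′ exonuclease, had 236 and 182 CPM in nuclei, against 157 CPM in whole sperm, and Rnu7, the U7 RNA that guides the 3′ cut of histone pre-mRNA, was at 0 in every library. Cstf2, a cleavage stimulation factor subunit, had 169 and 216 CPM, against 95.6 CPM, and Sympk, the scaffold symplekin, had 67.3 and 75.0 CPM, against 57.5 CPM.

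Of the 21 tested histone chaperones 0 were called, with a median log2 of -0.49, against 0.27 for all features. The unadjusted p of edgeR was under 0.05 for 1 higher gene and 2 lower genes, against 3.77% and 2.07% of all features. Both nuclei libraries lay above whole sperm for 4 of the 21 and below for 10, against 26.7% and 36.9% of all features. The chaperones' share of all counts was 0.267% and 0.417% in the nuclei libraries, against 0.195% in whole sperm. Supt6, a transcription elongation factor that binds histones, had the highest level of the list, with 1803 and 2839 CPM in nuclei, against 742 CPM in whole sperm. It gave 9455 of the list's 14630 counts in nuclei 1 and 18951 of 27697 in nuclei 2, against 6426 of 16216 in whole sperm. Most of the list's counts in nuclei were thus those of Supt6. Ssrp1, a subunit of the FACT complex, had 309 and 444 CPM in nuclei, against 85.6 CPM in whole sperm (unadjusted p = 0.0086, edgeR's adjusted p = 0.471). Rbbp7, a histone-binding subunit, had 81.8 and 32.5 CPM, against 181 CPM (unadjusted p = 0.0351, edgeR's adjusted p = 0.757), and Atrx, a chromatin remodeller, had 15.4 and 22.3 CPM, against 96.4 CPM (unadjusted p = 0.0210, edgeR's adjusted p = 0.633). Both nuclei libraries were thus above whole sperm for Supt6 and Ssrp1 and below for Rbbp7 and Atrx, while Ubn2 had 210 and 398 CPM, against 230 CPM. Of the 25 tested genes of DNA replication and S phase 0 were called, with a median log2 of -0.59, against 0.27 for all features. The log2 fold change was below 0 for 14 of the 25 and above 0 for 11, among them the 3 named next. In 10 of the 25 both nuclei libraries were below whole sperm and in 3 both were above, against 36.9% and 26.7% of all features. Ccne1, a cyclin, had 152 and 59.2 CPM in nuclei, against 82.9 CPM in whole sperm, Top2a, a topoisomerase, 64.1 and 151 CPM, against 58.9 CPM, and Cdc45, of the replicative helicase, 31.8 and 79.4 CPM, against 33.5 CPM.

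Replacement histones, which are made outside S phase, had 0 of 13 tested genes called and a median log2 of 0.51, against 0.27 for all features. Only 1 of the 13 had both nuclei libraries above whole sperm and 3 had both below, against 26.7% and 36.9% of all features. H2afz, which encodes H2A.Z, had 452 and 89.7 CPM in nuclei 1 and nuclei 2, against 127 CPM in whole sperm, so that it was higher than whole sperm in nuclei 1 and lower in nuclei 2. H3f3b, an H3.3 gene, had 104 and 100.2 CPM in nuclei, against 159 CPM in whole sperm, and H3f3a, another H3.3 gene, had 71.3 and 32.1 CPM, against 179.9 CPM (log2 fold change -1.80, unadjusted p = 0.0241, edgeR's adjusted p = 0.667). Both H3.3 genes were lower than whole sperm in each nuclei library. The 5 protamine and transition protein genes had both nuclei libraries above whole sperm in 5 of 5, against 26.7% of all features. Their median log2 was 0.97, against 0.27 for all features, with 0 calls. Tnp2, a transition protein gene, had 1031 and 1416 CPM in nuclei, against 304 CPM in whole sperm, Tnp1 had 1449 and 801 CPM, against 574 CPM, and Prm2, a protamine gene, had 592 and 430 CPM, against 319 CPM.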

How the data were processed

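Raw counts of reads per gene and region, in 3 columns of 1 preparation each, were deposited by the authors. The submitters' processing notes name build mm10 and, without role or order, TopHat2 2.0.12, HTSeq, Cufflinks 2.1.1, bedtools, SAMtools 0.1.19, DESeq2 and CASAVA 1.8.2. RPKM values were deposited by the authors as 1 column per preparation. The deposited adjusted values of whole sperm were treated as a score. Spike-ins and reads outside features (5896320 in whole sperm, with 336963 ambiguous) stayed out of library sizes and tests. Counts were tested with the quasi-likelihood test of edgeR 4.0.16 in R 4.3.3 (TMM factors, filterByExpr, Benjamini-Hochberg adjustment over 16720 features, threshold 0.05). The fit has 1 residual degree of freedom, a common biological coefficient of variation of 1.30 and infinite prior degrees of freedom, so the lone whole-sperm column is assumed to vary like nuclei, and p-values rest on a spread pooled over features. SEs were derived from the F statistic, and the outcome of a run of the fit on simulated data is not reported here. Alternatives used DESeq2 1.42.0, other scalings and filters, and limma 3.58.1 on log2(RPKM + 0.1) and log2(RPKM + 1). Transcripts, overlaps and stem-loops came from GENCODE vM21, whose assembly matches mm10; transcripts of 64 of the 65 genes were matched by RefSeq accession and 1 by its longest transcript. Named were the testis forms, the 4 genes of each class with the highest mean CPM, genes at an unadjusted p under 0.05 and, from each other list, the 3 with the highest mean (erythrocyte markers by their summed count). Ncbp1, Coil, Rbbp7 and Atrx were named after their values were seen. Other genes outside this rule, some with fewer than 20 counts, are given where they bear on a comparison. The members and lists were chosen with earlier results of these data known.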

Additional observations from a re-analysis of the deposited data

How the results depend on the processing

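The count of histone genes called was 0 in each direction under every alternative with a test but spike-in scaling. In both limma fits and with a mean of at least 10 CPM no feature of any kind was called, so those show nothing about histone genes, and the values without 1 nuclei library have no calls. With spike-in scaling, which assumes an equal spike-in amount per library, 1 gene was called lower (Hist1h1c, log2 -4.13, edgeR adjusted p = 0.0341) and the median log2 fold change of the tested histone genes was -1.52, while that of all features shifted to -1.16 and 3.26% of all features were called lower and 0.0239% higher. The median was -0.98 with limma on log2(RPKM + 0.1), against -0.65 for all features, and it ranged from -0.26 to 0.33 without 1 nuclei library. Without nuclei 1 it was below that of all features (-0.035), and without nuclei 2 above it (0). The share of counts of all histone genes in nuclei 1, nuclei 2 and whole sperm was 0.0952%, 0.0474% and 0.0814% of annotated gene counts without Rn45s and Lars2. It was 0.0331% and 0.0256% of all counts in the nuclei libraries without Hist2h2be, the gene with most reads over the nuclei libraries, against 0.0378% in whole sperm, so nuclei 1 was then below whole sperm.

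With that smaller denominator, which raises every share, H1 was 0.00450%, 0.0104% and 0.0307% in nuclei 1, nuclei 2 and whole sperm. H2a was 0.00618%, 0.00685% and 0.0137%, H2b 0.0606%, 0.0216% and 0.0245%, H3 0.0127%, 0.00246% and 0.00400%, and H4 0.0112%, 0.00613% and 0.00848% in the same libraries. The gene with most counts over all libraries together was then left out of each class. Without Hist1h1a H1 was 0.00142%, 0.00397% and 0.00893% of all counts, and without Hist1h2aa H2a was 0.00200%, 0.000767% and 0.00375%. Without Hist1h3e H3 was 0.00175%, 0.000436% and 0.000637%, and without Hist1h4h H4 was 0.00454%, 0.00220% and 0.00332%. In single libraries another gene could lead, such as Hist1h1t for H1 in nuclei 2 and Hist4h4 for H4 in nuclei 1. H2b without Hist2h2be was 0.0170% and 0.0105% in the nuclei libraries, against 0.0110% in whole sperm, so nuclei 2 was then below whole sperm.

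Single genes that changed direction had no call in any fit. With spike-in scaling, the log2 fold change was -0.79 for Hist1h1t, -0.26 for Hist1h3e, -1.24 for Hist1h4a and -0.75 for Hist1h4h. With limma on log2(RPKM + 0.1) it was -1.996 for Hist1h1t, -0.44 for Hist1h4a and -0.12 for Hist1h4h, and with a pseudocount of 1 it was -0.53, -0.35 and -0.089. The cause was not tested. Without 1 nuclei library the value ranged from -9.30 to 1.66 for Hist1h1t, -1.42 to 0.32 for Hist1h2aa, -0.47 to 0.10 for Hist1h2ba and -0.039 to 3.57 for Hist1h2bb. It ranged from -0.26 to 1.94 for Hist1h3e, -0.89 to 0.84 for Hist1h4a, -3.66 to 0.33 for Hist2h3c2 and -2.87 to 0.77 for Hist2h4; these values have no test. No paired analysis was possible because whole sperm has 1 preparation. No group had 4 samples, so single samples were not searched for outliers. Members with few reads are limited by depth, since 1 read was 0.120 to 0.182 CPM.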
